A study of Mus musculus with 12 samples.

Results

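The 10 genes described here mark neutrophils and monocytes in whole liver: S100a8, S100a9, Ngp, Camp, Ltf, Lyz2, Ly6c2, Ccr2, Itgam and Csf3r. They were chosen by name out of 30063 genes, and the probe set with the highest mean that named the gene alone stood for it. All 10 had 1 such probe set, and 9 lay above the filter on dim genes and were among the 19985 genes tested. The livers came from 12 mice of strain C57BL/6J -Oca2p-un/J, aged 3 months, in 3 groups of 4 with 2 females and 2 males each. The PVP-AgNP mice and the cit-AgNP mice received 20 nm silver particles, coated with polyvinylpyrrolidone (PVP) or with citrate, by gavage into the stomach, as 7 daily doses of 4 mg silver for each kg of body weight, and the control mice received water. All 12 carried the pink-eyed unstable allele of Oca2, a pigmentation gene, and their livers were frozen 24 h after the last dose. Each mouse gave 1 Affymetrix array, and values are log2 signals as deposited; the number of arrays limits their precision. Replicates are mice labelled separately, and the labels do not say whether they shared a cage or a litter.

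Neutrophils are short-lived white cells that leave the marrow with granules already filled, so that the messages of many granule proteins are made in marrow precursors and fade before the cell reaches the blood. Monocytes leave the marrow through the chemokine receptor Ccr2 and can become macrophages in tissue. The liver also holds its own macrophages, the Kupffer cells, which share some of these genes. In bulk RNA, fewer cells of a type and less RNA per cell cannot be told apart.

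The markers split by signal. The arrays carry 5222 intron control probe sets, which stand for background, and their 12-array means had a median of 4.76 and a 95th percentile of 7.91. Of the 10 markers, the means of S100a8, S100a9 and Lyz2 lay above that percentile. On single arrays Lyz2 lay above the array's own 95th percentile on 12 of 12, and S100a8 and S100a9 on 7 of 12 each. Ly6c2 and Csf3r lay between the median and the 95th percentile. Ngp, Camp, Ltf, Ccr2 and Itgam had means below the intron control median. The granule genes and the monocyte homing receptor, which would define neutrophil precursors and newly arrived monocytes, were therefore below this background median on average. On each array the median of all probe sets (4.13 to 4.40) was below that of the intron controls (4.63 to 4.88), so this does not show them absent. The label of infiltration rests in these arrays mainly on S100a8, S100a9 and, more weakly, on Csf3r and Ly6c2. The tissue matched its label, since 7 of the 7 hepatocyte markers with a probe set, among them Alb and Hnf4a, lay above the 95th percentile.

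**Figure D1:**
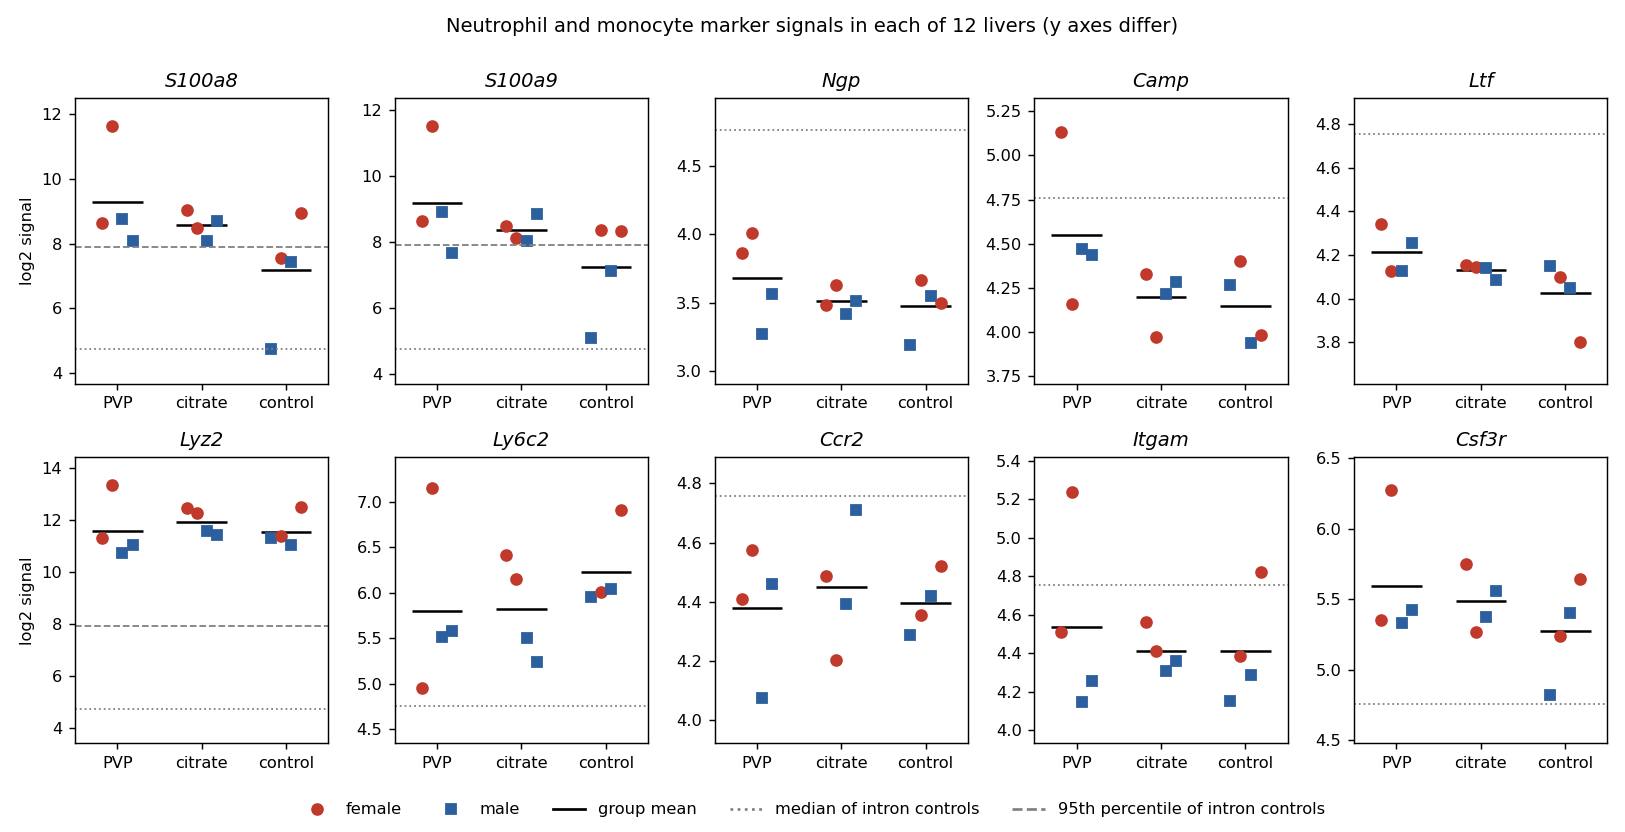
Log2 signal of each of the 10 markers in each of 12 livers, by group (PVP, citrate, control), with circles for females, squares for males and a bar for the group mean; the dotted line is the median (4.76) of the intron control probe sets and the dashed line, drawn for S100a8, S100a9 and Lyz2, their 95th percentile (7.91); y axes differ. S100a8 and S100a9 spread from 4.76 and 5.07 in a control male to 11.63 and 11.52 in a PVP-treated female, while Ngp, Ltf and Ccr2 stay below the dotted line.

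S100a8 and S100a9 encode the partners of calprotectin, a calcium- and zinc-binding complex that fills the cytosol of neutrophils and is also made by monocytes. The genes lie on chromosome 3. Because they moved together across the mice, the 250 bases before each start are shown from RefSeq (build GRCm38.p6), 5′ to 3′ on the strand of the gene, with the window of Lyz2 for comparison. Capitals mark matches to TTNCNNAA, a loose form of the motif of C/EBP factors, which drive granulocyte genes, on either strand.
S100a8, chr3:90668821-90669070, plus strand: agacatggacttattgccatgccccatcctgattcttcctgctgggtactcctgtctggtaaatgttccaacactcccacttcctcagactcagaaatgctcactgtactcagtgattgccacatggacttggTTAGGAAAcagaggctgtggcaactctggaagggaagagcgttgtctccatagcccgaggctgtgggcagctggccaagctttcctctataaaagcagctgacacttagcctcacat
S100a9, chr3:90695722-90695971, minus strand: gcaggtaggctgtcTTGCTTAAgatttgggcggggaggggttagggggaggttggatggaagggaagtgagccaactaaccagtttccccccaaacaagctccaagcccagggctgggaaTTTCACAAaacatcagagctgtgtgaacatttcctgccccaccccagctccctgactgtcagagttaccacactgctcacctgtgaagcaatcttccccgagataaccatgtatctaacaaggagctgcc
Lyz2, chr10:117282273-117282522, minus strand: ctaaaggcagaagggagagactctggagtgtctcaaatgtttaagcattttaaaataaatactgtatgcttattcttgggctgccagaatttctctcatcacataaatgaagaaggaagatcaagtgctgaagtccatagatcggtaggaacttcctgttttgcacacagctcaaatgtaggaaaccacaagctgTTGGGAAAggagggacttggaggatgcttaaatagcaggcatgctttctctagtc
S100a8 had 1 match, S100a9 had 2 and Lyz2 had 1. RefSeq gave 11 windows for the 10 markers, all of which matched by symbol, and 9 of the 11 held the motif, against 36.8% of 32851 windows of the same length over all genes. Ly6c2 had more than 1 window, and its windows overlapped and shared matches. By gene, 8 of the 10 markers held the motif. GAGGAAG, a form of the site of PU.1, a myeloid factor, was in 5 of the 11 windows on either strand (4 of the 10 markers) and in 10.6% of all windows, and no match overlapped one of TTNCNNAA. A match describes the letters in a window and does not show that a factor binds there.

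S100a8 had log2 signals of 8.64, 11.63, 8.76 and 8.08 in PVP-AgNP replicates 1 to 4 and 9.03, 8.49, 8.07 and 8.69 in cit-AgNP replicates 1 to 4, against 4.76, 7.57, 7.44 and 8.94 in control replicates 1 to 4. An exposed liver, PVP-AgNP replicate 2, stood far above the rest, a single control liver, replicate 1, stood far below, and the groups overlapped. S100a9 had 8.63, 11.52, 8.91 and 7.66 in PVP-AgNP livers and 8.50, 8.11, 8.02 and 8.85 in cit-AgNP livers, against 5.07, 8.37, 7.13 and 8.33 in control livers. The same mice were at its extremes, and its groups overlapped as well. From the lowest to the highest mouse the signal differed 117-fold for S100a8 and 87.2-fold for S100a9, and their standard deviations (SD) over the 12 mice, 1.55 and 1.46, were larger than those of 99.6% of the genes tested, whose median SD was 0.21.

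With PVP-coated particles S100a8 averaged 9.28 ± 1.59 against 7.18 ± 1.75 in control livers (mean ± SD, n = 4 each), a log2 fold change of 2.10 with a standard error (SE) of 0.74 and a 95% interval of 0.46 to 3.74. It did not pass the threshold of an adjusted p under 0.05 over all genes (limma, unadjusted p = 0.0171, adjusted p = 0.182). S100a9 averaged 9.18 ± 1.65 against 7.22 ± 1.54, a log2 fold change of 1.96 (SE 0.72, limma adjusted p = 0.189). With citrate-coated particles S100a8 averaged 8.57 ± 0.40 and S100a9 8.37 ± 0.38, log2 fold changes of 1.39 (SE 0.74, limma adjusted p = 0.848) and 1.14 (SE 0.72, limma adjusted p = 0.892) against the same 4 controls. The citrate group was the tightest of the 3 for both genes. Both comparisons share their control mice, so they are not independent of each other.

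The differences with PVP and with citrate changed with single mice, in both directions. Without PVP-AgNP replicate 2 the log2 fold change of S100a8 between PVP-AgNP and control was 1.48, and without control replicate 1 it was 1.46. Without both mice, an alternative chosen after seeing the data, it was 0.66 for S100a8 and 0.59 for S100a9 (limma adjusted p = 0.335 and 0.414). Between cit-AgNP and control the value without control replicate 1 was 0.75 for S100a8 and 0.58 for S100a9 (limma adjusted p = 1 for both), and without both mice it was 0.66 and 0.49. Leaving out other mice moved S100a8 upwards. Without control replicate 4 its log2 fold change was 2.49 with PVP and 1.79 with citrate. Without PVP-AgNP replicate 1 that with PVP was 2.60. Array quality was taken as the area that shows how well the signal tells 1324 exon control probe sets from the intron ones (a ROC curve), and it lay between 0.778 and 0.842 over the 12 arrays. It was 0.821 for PVP-AgNP replicate 2, and control replicate 1 had the second highest area. The lowest areas, 0.778 and 0.794, belonged to PVP-AgNP replicates 1 and 4, and without these the log2 fold changes with PVP were 3.02 for S100a8 and 2.99 for S100a9 (limma adjusted p = 0.37 and 0.34). The part of array quality in the values of these genes was not tested further.

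**Figure D2:**
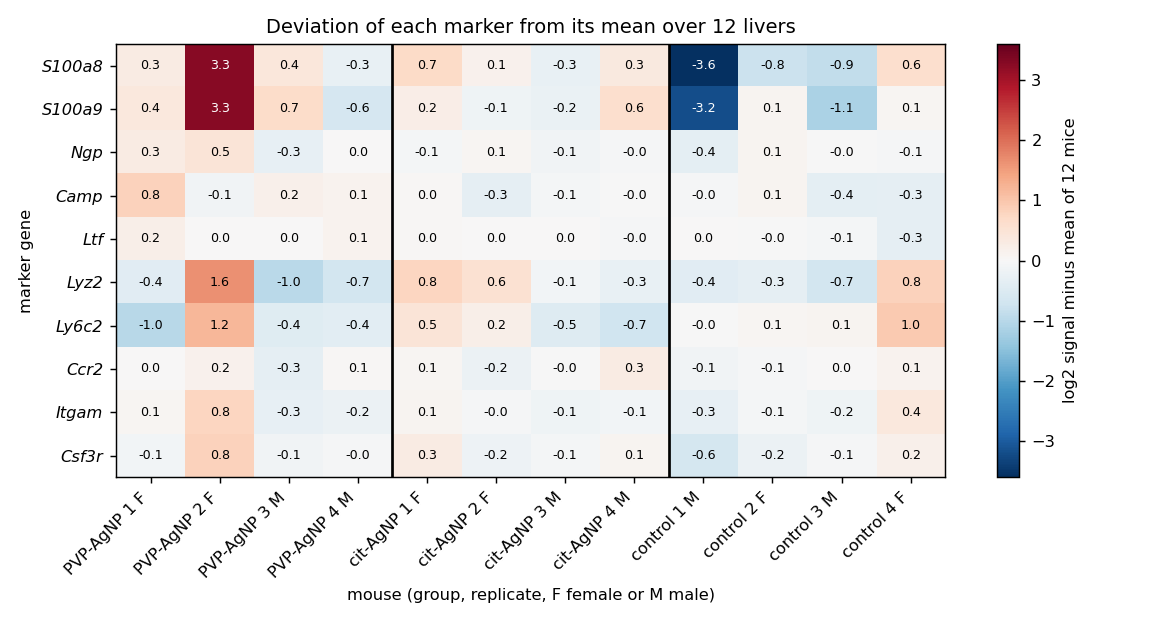
Deviation of each marker (rows) in each mouse (columns, grouped as PVP-AgNP, cit-AgNP and control) from the marker's mean over the 12 mice, in log2 units, printed to 1 decimal. PVP-AgNP replicate 2 was the highest mouse for 7 of the 10 markers and control replicate 1 the lowest for 4 of them.

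Csf3r encodes the receptor for the granulocyte growth factor G-CSF and is carried by neutrophils. It had 5.35, 6.27, 5.33 and 5.42 in PVP-AgNP livers and 5.75, 5.27, 5.37 and 5.56 in cit-AgNP livers, against 4.82, 5.24, 5.40 and 5.65 in control livers. The highest and the lowest liver were again PVP-AgNP replicate 2 and control replicate 1, and the other 10 livers lay between 5.24 and 5.75. The log2 fold change was 0.32 (SE 0.21, limma adjusted p = 0.399) with PVP and 0.21 (SE 0.21, limma adjusted p = 0.989) with citrate, and that with PVP was 0.12 without PVP-AgNP replicate 2, 0.20 without control replicate 1 and -0.051 without both. S100a8 and S100a9 were correlated over the 12 mice (Pearson r = 0.966, permutation p = 0.00016, adjusted 0.0036; Spearman rho = 0.797, permutation p = 0.00294, adjusted 0.0441, each adjusted over 45 pairs of markers). Without control replicate 1 and PVP-AgNP replicate 2, the mice farthest from the median, r was 0.705, and it was 0.951 for deviations from the group means. S100a8 and Csf3r had r = 0.922 (permutation p = 0.00068, adjusted 0.01) and rho = 0.727 (permutation p = 0.00967, adjusted 0.109), and r was 0.60 without the same mice.

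**Figure D3:**
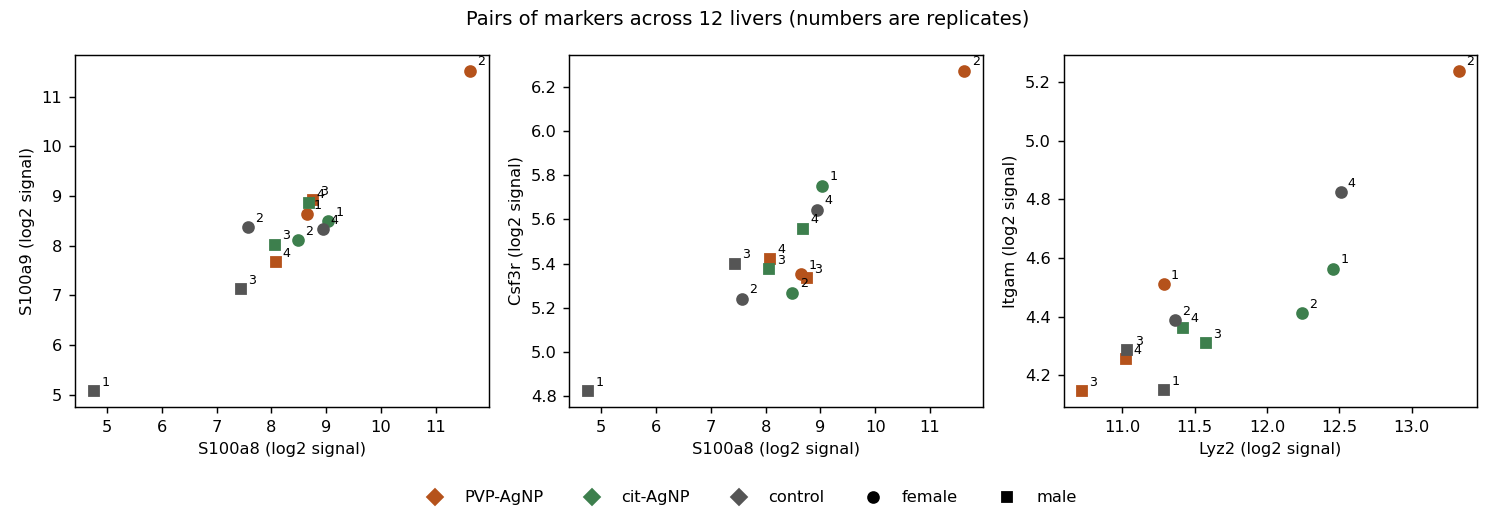
Log2 signals of S100a9 against S100a8, Csf3r against S100a8 and Itgam against Lyz2, 1 point per mouse, coloured by group, with circles for females and squares for males and the replicate number beside each point. PVP-AgNP replicate 2 lies at the upper right of all 3 panels, and control replicate 1 at the lower left of the panels with S100a8, at 4.76.

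The granule genes gave little signal. Ngp (neutrophilic granule protein) and Camp (the antimicrobial peptide precursor cathelicidin) are related secondary granule genes, and Ltf encodes lactoferrin, an iron-binding protein of the same granules. Ngp averaged 3.68 ± 0.33 in PVP-AgNP, 3.51 ± 0.09 in cit-AgNP and 3.48 ± 0.20 in control livers (SD, n = 4 each), and was too dim to be tested. Camp averaged 4.55 ± 0.41 in PVP-AgNP and 4.20 ± 0.16 in cit-AgNP livers, against 4.15 ± 0.22 in control livers, and its highest liver was PVP-AgNP replicate 1 at 5.13, the array of lowest exon over intron area. Its log2 fold change with PVP was 0.40 (SE 0.19, limma adjusted p = 0.269), and it was 0.17 without the arrays of PVP-AgNP replicates 1 and 4, 0.20 without replicate 1 alone and 0.076 with the exon to intron area as a covariate. The part of array quality in this value was not tested further. Ltf had log2 fold changes of 0.19 (SE 0.085, limma adjusted p = 0.246) with PVP and 0.11 (SE 0.085, limma adjusted p = 0.959) with citrate, within a range of 0.54 over all 12 livers. Neither Camp nor Ltf passed the threshold and Ngp was not tested, so a change in the granule messages was neither shown nor excluded.

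Lyz2 encodes lysozyme, which digests bacterial cell walls and is made by neutrophils, monocytes and Kupffer cells alike. It had 11.29, 13.32, 10.72 and 11.03 in PVP-AgNP livers and 12.46, 12.24, 11.58 and 11.42 in cit-AgNP livers, against 11.29, 11.36, 11.03 and 12.51 in control livers. High values occurred in all 3 groups, each time in females. The log2 fold change was 0.042 (SE 0.40, 95% interval -0.84 to 0.92) with PVP, and turned to -0.42 without PVP-AgNP replicate 2, to -0.38 without this mouse and control replicate 1, and below 0 also without control replicate 2 and with array medians subtracted. With citrate it was 0.38 (SE 0.40, 95% interval -0.50 to 1.25). Neither passed in limma (adjusted p = 0.963 and 0.992).

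Ly6c2 encodes a surface antigen by which inflammatory monocytes are sorted. It had 4.95, 7.15, 5.51 and 5.58 in PVP-AgNP livers and 6.41, 6.15, 5.50 and 5.24 in cit-AgNP livers, against 5.95, 6.01, 6.04 and 6.90 in control livers. PVP-AgNP livers held both the highest and the lowest value. The log2 fold changes were -0.43 (SE 0.38, limma adjusted p = 0.531) with PVP and -0.40 (SE 0.38, limma adjusted p = 0.986) with citrate, and that with PVP was 0.0066 without PVP-AgNP replicate 1, 0.11 without PVP-AgNP replicates 1 and 4 and 0.29 with the exon to intron area as a covariate. Ccr2, the receptor through which monocytes answer the chemokine Ccl2, averaged 4.38 ± 0.21 in PVP-AgNP, 4.45 ± 0.21 in cit-AgNP and 4.40 ± 0.10 in control livers, with log2 fold changes of -0.017 (95% interval -0.30 to 0.27) and 0.052 (95% interval -0.23 to 0.33). Itgam, the integrin chain CD11b of both cell types, had 0.13 (SE 0.17, limma adjusted p = 0.676) with PVP, with PVP-AgNP replicate 2 highest at 5.24, and the value was -0.062 without that mouse and -0.11 without it and control replicate 1. With citrate it had -0.00044 (95% interval -0.37 to 0.37), with a sign that changed in 5 of 24 alternatives.

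Of the 9 markers tested, 0 passed over all genes with PVP, where 0.04% of all genes passed (limma), and 0 with citrate, where 0.005% passed. At an unadjusted p under 0.05, 2 of the 9, S100a8 and S100a9, were higher with PVP, against 8.05% of all genes, and 0 were lower, against 12.2%. With citrate 0 were higher, against 2.75%, and 0 lower, against 3.82%. None of the 9 had groups that did not overlap, against 7.9% of all genes with PVP and 4.3% with citrate. With PVP 7 of 9 had a log2 fold change above 0, against 49.3% of all genes, with a median of 0.19 against -0.0023, and the median was -0.051 without PVP-AgNP replicate 2 and control replicate 1. With citrate 7 of 9 did, against 50.2%, with a median of 0.11 against 0.00043.

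**Figure D4:**
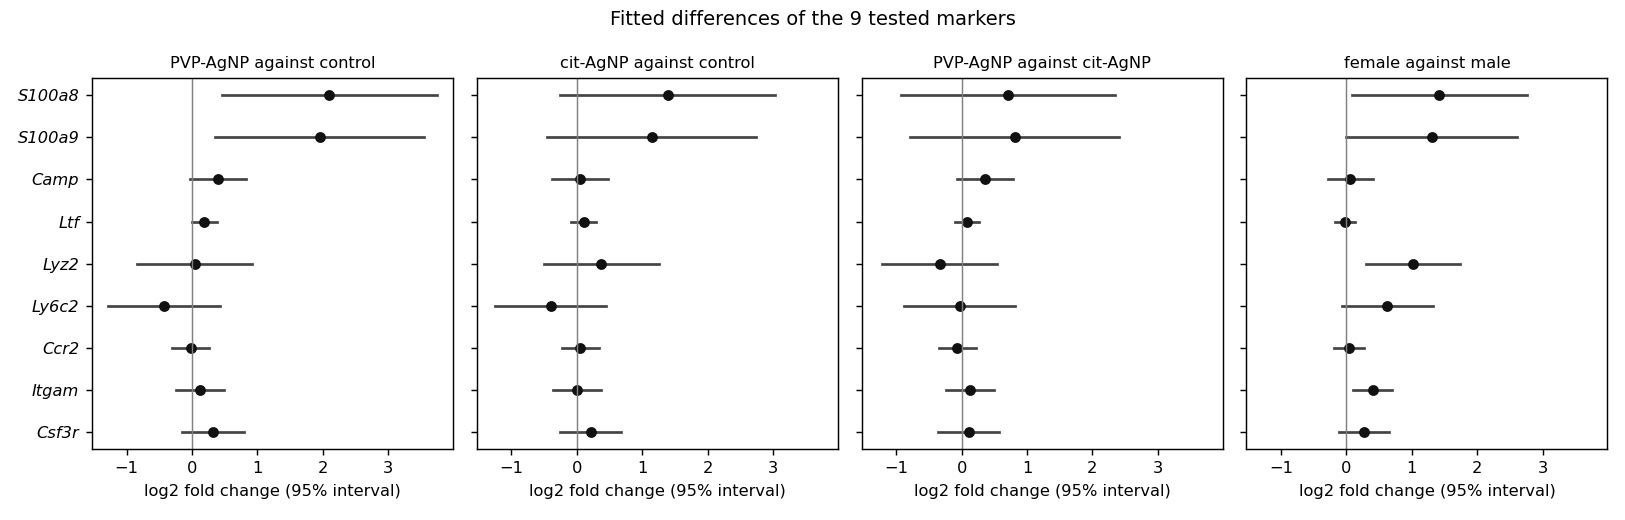
Fitted log2 fold changes (points) with 95% intervals (lines) of the 9 tested markers for PVP-AgNP against control, cit-AgNP against control, PVP-AgNP against cit-AgNP and female against male, all on the same axis. The points of S100a8 and S100a9 with PVP are at 2.10 and 1.96, and those of Lyz2 and Itgam lie farther from 0 for sex, at 1.02 and 0.40, than for either coating.

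PVP-treated and citrate-treated livers were also set against each other. S100a8 had a log2 fold change of 0.71 (SE 0.74, 95% interval -0.93 to 2.35, limma adjusted p = 0.681) and S100a9 0.81 (SE 0.72, 95% interval -0.78 to 2.41, limma adjusted p = 0.622), so that differences of either sign remained possible. Without PVP-AgNP replicate 2 these values were 0.092 and 0.18, and without the arrays of PVP-AgNP replicates 1 and 4 they were 1.62 and 1.85. Camp had 0.35 (SE 0.19) and Lyz2 -0.33 (SE 0.40), and the other 5 markers had values between -0.069 and 0.13. None of the 9 markers passed in limma, as 0 of all genes did (0%), and at an unadjusted p under 0.05 there were 0 of 9, against 5.29% of all genes higher and 8.72% lower. Values above 0 were found for 6 of 9, against 49.6% of all genes, and groups that did not overlap for 0 of 9, against 7.2%.

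None of the 9 markers passed between females and males (limma), where 2.18% of all genes did. Lyz2 averaged 12.20 ± 0.77 in females and 11.18 ± 0.31 in males (SD, n = 6 each), a difference of 1.02 (SE 0.32, limma unadjusted p = 0.00979, adjusted p = 0.153). Itgam averaged 4.66 ± 0.33 in females, from 4.39 to 5.24, and 4.25 ± 0.09 in males, from 4.15 to 4.36, a difference of 0.40 (SE 0.13, limma adjusted p = 0.177). Its sexes did not overlap, the 1 of 9 markers for which this was so, against 2.28% of all genes. Its mean lay below the intron control median, though PVP-AgNP replicate 2 (5.24) and control replicate 4 (4.82) lay above it. The part of background in this difference was not tested. S100a8 had 1.42 (SE 0.60, limma adjusted p = 0.297), which was 0.46 without PVP-AgNP replicate 2 and control replicate 1. In all, 3 of 9 markers were higher in females at an unadjusted p under 0.05, against 6.36% of genes, 0 were lower, against 8.93%, and 8 of 9 lay above 0, against 42.9%. Lyz2 passed once the exon to intron area was a covariate (limma adjusted p = 0.0415). Lyz2 and Itgam were correlated over the 12 mice (r = 0.891, permutation p = 0.00015, adjusted 0.0036; rho = 0.832, permutation p = 0.00142, adjusted 0.032), with r of 0.71 without PVP-AgNP replicate 2 and control replicate 4. The effect of a coating in females minus that in males did not pass for any of the 9 markers (limma, adjusted p = 1 for each with PVP and with citrate; 0% of all genes passed in either). At an unadjusted p under 0.05, 0 of 9 were above 0 and 0 below with PVP, against 1.71% and 1.91% of all genes, and with citrate likewise 0 and 0, against 0.876% and 1.57%. Differences above 0 numbered 7 of 9 with PVP, against 47.1% of all genes, and 3 of 9 with citrate, against 49.6%. For S100a8 this difference was -0.44 (95% interval -3.92 to 3.04) with PVP and -1.77 (95% interval -5.25 to 1.71) with citrate.

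Genes of most similar pattern were sought over the 12 arrays by Pearson r. For S100a8 these were Dapp1, a signalling adaptor of white cells (r = 0.93), the transcription factor gene Fosl2 (r = 0.922) and the zinc importer gene Slc39a14 (r = 0.916), with r of 0.54 to 0.68 without the 2 mice farthest from the median. For Lyz2 they were its neighbour and near copy Lyz1 (r = 0.979) and the cholesterol genes Mvd (r = 0.977) and Srebf2 (r = 0.953). Signals of Lyz1 and Lyz2 could be shared by probes that bind both, as could those of Ly6c2 and Ly6c1, and this was not tested. Lyz1 had a log2 fold change of -0.0029 (SE 0.26) with PVP and a female minus male difference of 0.76 (SE 0.22, limma adjusted p = 0.113), and Ly6c1 had -0.0075 (SE 0.13) and 0.32 (SE 0.11, limma adjusted p = 0.191). Ngp and Ccr2, both with means below the intron control median, were most like Grn (r = 0.968) and Vmn2r51 (r = 0.853).

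Other genes of these cells were listed by name. Of 42 further neutrophil genes, 35 had a probe set. Of these, 8 had a mean above the median of the intron controls, 0 had one above their 95th percentile, and 22 were tested. None passed with either coating. With PVP 21 of the 22 lay above 0, with a median of 0.20, and 6 were higher at an unadjusted p under 0.05, against 49.3% and 8.05% of all genes. With citrate 16 lay above 0, with a median of 0.073, and 2 were higher at that p, against 50.2% and 2.75%. The smallest p-values with PVP belonged to Lcn2, an iron-withholding lipocalin that hepatocytes also make (3.94, SE 1.07, limma adjusted p = 0.128), to Cxcr2, the receptor that guides neutrophils to chemokines (0.39, SE 0.12, limma adjusted p = 0.152), and to Prtn3, a granule protease (0.56, SE 0.17, limma adjusted p = 0.156). Lcn2 had 11.13, 13.60, 5.99 and 5.67 in PVP-AgNP livers and 9.14, 6.49, 4.96 and 5.35 in cit-AgNP livers, against 4.44, 4.92, 4.74 and 6.54 in control livers. Both PVP-treated females were high, while both PVP-treated males lay within the range of the controls. Prtn3 had 4.78, 5.18, 4.13 and 4.16 in PVP-AgNP livers, the females being replicates 1 and 2, against 3.94 to 4.12 in control livers. Its means, 4.56 in PVP-AgNP, 4.00 in cit-AgNP and 4.01 in control livers, lay below the intron control median. PVP-AgNP replicate 1 was also the array of lowest exon over intron area. The effect in females minus that in males did not pass for Lcn2 (5.40, SE 1.39) or Prtn3 (0.79, SE 0.20; limma adjusted p = 1 for both). Cxcr2 had 5.74, 6.15, 5.41 and 5.68 in PVP-AgNP livers and 5.39, 5.30, 5.41 and 5.41 in cit-AgNP livers, against 5.25, 5.35, 5.41 and 5.41 in control livers, and PVP-AgNP replicate 2 was again highest. The lowest PVP-AgNP value of Cxcr2 and its highest cit-AgNP and control values were the same number, 5.41274, and the cause of this tie was not tested. Retnlg, a resistin-like gene of mature neutrophils named after its values were seen, had 5.43, 8.17, 6.41 and 5.69 in PVP-AgNP livers and 6.79, 7.04, 5.95 and 6.88 in cit-AgNP livers, against 3.88, 6.33, 5.97 and 7.16 in control livers. Its highest and lowest mice were those of S100a8. Its log2 fold change was 0.59 (SE 0.62, limma adjusted p = 0.595) with PVP and 0.83 (SE 0.62, limma adjusted p = 0.948) with citrate. With citrate the smallest p-value belonged to Il1r2, a decoy receptor for interleukin 1 (0.51, SE 0.15, limma adjusted p = 0.51). Il1r2 lay below the intron control median in all 12 livers, and the part of background in this difference was not tested. Of the precursor enzymes, Mpo and Elane lay between 3.16 and 4.05 in all 12 livers, below the intron control median. The lean above 0 with PVP was not particular to neutrophil genes, as dim markers of other cells showed it too (counts below). The part of array quality in this lean was not tested.

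Of 26 further monocyte genes 23 were tested and 0 passed with either coating. With PVP 20 lay above 0, with a median of 0.22, against 49.3% of all genes, and with citrate 20, with a median of 0.16, against 50.2%. Between the sexes 23 of 23 had a female minus male difference above 0, with a median of 0.36, against 42.9% of all genes. Of these, 13 were higher at an unadjusted p under 0.05, against 6.36% of all genes, and none passed in limma. Plac8, a gene of circulating monocytes and granulocytes, had 0.61 (SE 0.26, limma adjusted p = 0.223) with PVP, and the fractalkine receptor gene Cx3cr1 0.24 (SE 0.092, limma adjusted p = 0.199). With citrate Cd14, a co-receptor for bacterial lipopolysaccharide, had 0.45 (SE 0.14, limma adjusted p = 0.514), and with PVP -0.093 (SE 0.14, limma adjusted p = 0.719). Of 23 recruitment signals 12 were tested and 0 passed. With PVP 8 lay above 0 and 4 below, with a median of 0.14, against 49.3% of all genes above 0. At an unadjusted p under 0.05, 1 was higher, against 8.05%, and 0 lower, against 12.2%. With citrate 7 lay above 0 and 5 below, with a median of 0.034, against 50.2% of all genes above 0. At that p 1 was higher, against 2.75%, and 1 lower, against 3.82%. Cxcl1, a chemokine that draws neutrophils through Cxcr2, had 10.97, 10.43, 5.89 and 6.80 in PVP-AgNP livers and 7.82, 6.15, 6.12 and 7.39 in cit-AgNP livers, against 5.83, 6.44, 6.55 and 4.97 in control livers. Both PVP-treated females were high and both males were not. The log2 fold change with PVP was 2.57 (SE 0.93, limma adjusted p = 0.185), and the effect in females minus that in males was 4.84 (SE 1.00, limma unadjusted p = 0.00114, adjusted p = 0.994). Of 12 receptors and partners of S100a8 and S100a9, 10 were tested and 0 passed. With PVP 6 lay above 0 and 4 below, against 49.3% of all genes above 0. At an unadjusted p under 0.05 there was 1 higher, against 8.05% of all genes, and 1 lower, against 12.2%. Cyba, a subunit of the phagocyte oxidase, had 0.31 (SE 0.13, limma adjusted p = 0.231). Ly96, a co-receptor of Tlr4, had -1.09 (SE 0.25, limma adjusted p = 0.102) with PVP and -0.45 (SE 0.25, limma adjusted p = 0.867) with citrate.

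PVP-AgNP replicate 2 was also the highest of the 12 mice for Kupffer cell markers, acute phase genes and recruitment signals. It ranked 2 for the receptors and partners of S100a8 and S100a9, and was not the highest for the markers of other cells. Its rank, from the highest, was 2 for dividing cells, 5 for sinusoidal endothelium, 6 for T and NK cells and for platelets, 8 for hepatocytes, 9 for B cells and 11 for red cell precursors. The red cell list held 2 tested genes, and in it each female ranked below each male. The hepatocyte list lay between 17.77 and 18.02 in the 12 livers, with a highest deposited signal of 19.93, and saturation was not tested. The mean log2 signal of the 12 Kupffer cell markers lay between 8.41 and 10.07 in PVP-AgNP, 8.58 and 9.27 in cit-AgNP and 8.01 and 8.67 in control livers, and all 12 lay above 0 with each coating, against 49.3% of all genes with PVP and 50.2% with citrate, none past the threshold. That of the 12 acute phase genes, with Saa1 and Saa2 among them, lay between 13.46 and 17.15 in PVP-AgNP, 12.81 and 14.99 in cit-AgNP and 12.52 and 13.13 in control livers. With PVP 11 of the 12 lay above 0, with a median of 2.17, against 49.3% of all genes. Of these, 11 were higher at an unadjusted p under 0.05, against 8.05% of all genes, and 0 passed. PVP-AgNP replicates 2 and 1 were both high, at 17.15 and 16.61, while S100a8 in replicate 1 was 8.64, inside the range of the controls. The part of Kupffer cells and of the acute phase in the values of the markers was not tested. Saa2 had 19.34, 19.28, 11.80 and 13.31 in PVP-AgNP livers and 14.09, 8.63, 9.33 and 10.53 in cit-AgNP livers, against 7.38, 10.13, 9.31 and 9.70 in control livers. Lcn2 was in the acute phase list as well as among the further neutrophil genes. Of the 10 sinusoidal endothelial markers, 2 lay above 0 and 8 below with PVP, against 49.3% of all genes above 0. With citrate 6 lay above 0 and 4 below, against 50.2%, and 0 passed with either. At an unadjusted p under 0.05, 3 were lower with PVP, against 12.2% of all genes, and 1 with citrate, against 3.82%. None was higher at that p, against 8.05% and 2.75%. Markers of B cells (6 tested), T and NK cells (9), platelets (3), red cell precursors (2), dividing cells (5) and hepatocytes (7) had 0 members past the threshold with either coating. With PVP 5 of 6 B cell and 7 of 9 T and NK cell markers lay above 0 (medians 0.082 and 0.061). So did 3 of 3 platelet and 5 of 5 dividing cell markers (medians 0.074 and 0.15), against 49.3% of all genes. With citrate these counts were 1, 5, 2 and 1, against 50.2%. The 2 red cell genes lay below 0 with each coating. The median log2 fold change of the hepatocyte markers was within rounding of 0 (-7.1e-15) with either coating. At their high signals a count of 0 does not show that hepatocyte content was unchanged. Between the sexes 3 genes passed over all the lists, where 2.18% of all genes tested did. They were 1 of 12 Kupffer cell, 1 of 2 red cell and 1 of 12 acute phase genes tested, with none in the other lists. The complement gene C6 was lower in females by a log2 difference of -5.53, and Alas2, a haem synthesis gene, by -2.94. The acute phase gene Orm2 was higher by 3.68 (limma adjusted p = 1.48e-05, 0.000211 and 0.0274 for the 3 genes in this order). C6 is among the 12 Kupffer cell markers, so their mean in each mouse also depends on sex. Of the 12, 10 had a female minus male difference above 0, against 42.9% of all genes, with a median of 0.53. At an unadjusted p under 0.05, 6 were higher, against 6.36%, and 1 lower, against 8.93%. Of the B cell, T and NK cell, platelet and dividing cell markers with a probe set, 0 had a mean above the 95th percentile of the intron controls.

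**Figure D5:**
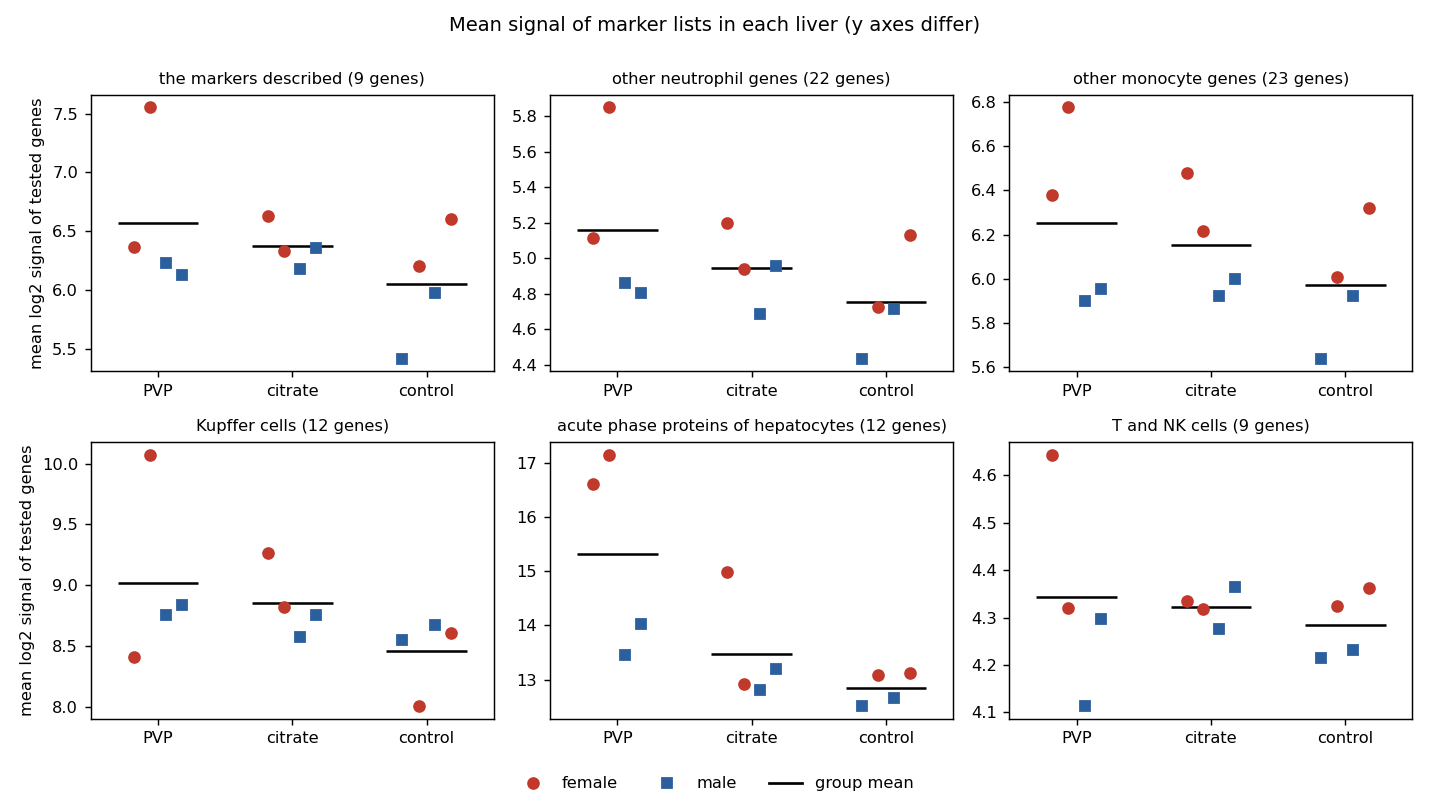
Mean log2 signal of the tested genes of 6 lists in each liver, by group (PVP, citrate, control), with circles for females, squares for males and a bar for the group mean; y axes differ. PVP-AgNP replicate 2 is highest for the markers described, at 7.56, and for the further neutrophil genes, monocyte genes and Kupffer cell markers, at 5.85, 6.78 and 10.07. Lcn2 is in both the neutrophil and the acute phase list.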

How the data were processed

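Liver RNA of 12 mice was hybridised to whole-transcript arrays, 1 per mouse, after Trizol extraction and biotin labelling, per the labels' protocols. The authors deposited log2 signals for 72688 probe sets, ranging from 1.73 to 19.93, and RMA and Transcriptome Analysis Console 4.0.1.36 are named in the submitters' processing notes. The genome build behind the signals is not given in the sources used here, and scanner intensities were not used. Names came from GEO's annotation of the platform, with 1135 symbols brought up to date with RefSeq (GRCm38.p6). Of 30063 genes, the 19985 whose mean exceeded 3.93, the 40th percentile over probe sets, entered limma 3.58.1 (R 4.3.3), in 1 fit of the 12 arrays with terms for group and sex and a trended spread. P-values were two-sided, with Benjamini-Hochberg adjustment across those genes (threshold 0.05). Effects by sex came from 6 means of group by sex. Correlations used 100000 permutations. The fits were tested on simulated data.

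The markers, the gene lists and the tests were chosen with earlier results of these data known. All 10 markers were named, and of the other lists the genes of smallest p, near copies of markers and acute phase genes. The fit reported had no block for replicate number. Same-numbered control and exposed mice had correlations of deviations from their group means of -0.515 to 0.431. In the 4 of 8 pairs of opposite sex they were -0.515 to -0.348, and in those of the same sex 0.0093 to 0.431. Between the coatings all 4 correlations were over 0.1 (0.167 to 0.526), but each such pair also shares its sex, which these deviations still hold. Same-sex mice of different numbers were not compared, so this measure cannot tell pairing by number from sex.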

Additional observations from a re-analysis of the deposited data

Results flagged for a closer look

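Chance flags about 1 in 20 groups of this kind, and 30 groups of 4 mice (10 markers in 3 groups) were looked at for a mouse that lay far from the other mice of its group. Csf3r in PVP-AgNP replicate 2 was 6.27, and the next mouse of the group had 5.42, a gap of 0.91 of the group's range. Ly6c2 in control replicate 4, a female, was 6.90, and the next control had 6.04, a gap of 0.90 of the range. S100a8 in PVP-AgNP replicate 2, at 11.63 with the next mouse at 8.76 had a gap of 0.81 of the range, which was below the critical value.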

How the results depend on the processing

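The count of markers past the threshold was 0 with PVP, with citrate and between the coatings under each of 25 alternatives, and for sex it was 1 (Lyz2) with a covariate for the exon to intron area and 0 under the other 22. Medians of the markers moved by less than 0.37, the residual SD between mice of their median signal. This SD was larger than the medians themselves, so it could not show that they held. In settings that did not leave out just 1 mouse, the medians reached 0.32 with PVP and 0.38 with citrate. Without PVP-AgNP replicate 2 and control replicate 1, a setting chosen after seeing the data, they turned to -0.051 with PVP and -0.067 between the coatings. When 1 replicate was left out they ranged from 0.12 to 0.23 with PVP, from 0.093 to 0.15 with citrate and from -0.061 to 0.21 between the coatings. S100a8 and S100a9 kept a value above 0 with either coating under all 25. The counts over all genes, 8 with PVP and 1 with citrate, depended on the setting. With PVP they were 4 without a filter, 85 with the filter at the 60th percentile, 0 with quantile normalization, 3 with array medians subtracted, 52 without a trended spread, 2 without a sex term, 0 in a fit to the 2 groups compared, 0 with 6 means of group by sex, 5 with the mean of all probe sets, 2 with the area as a covariate, 0 without the 2 arrays of lowest area and 0 without PVP-AgNP replicate 2 and control replicate 1. With citrate they were, in the same settings where they moved, 4 at the 60th percentile, 2 with quantile normalization, 0 with medians subtracted, 2 without a trend, 0 without a sex term, 0 for 2 groups, 0 with 6 means, 5 with the area, 0 without the arrays of lowest area and 0 without the pair of mice. Between the coatings they were 1 with quantile normalization and 1 with 6 means, against 0. Leaving out 1 replicate gave 1 to 61 with PVP and 0 to 6 with citrate. The replicate block gave 0 genes with PVP and 0 with citrate, called none of the markers, changed no call between the coatings (0 genes with and without it), and left the value of S100a8 at 2.10 (limma adjusted p = 0.222), while its difference between the sexes was 2.32 with the block, against 1.42. The labels do not say that a number pairs mice. The causes of these moves were not tested. Signal over background limits Ngp, Camp, Ltf, Ccr2 and Itgam, which lay below the intron control median.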
